A study of Mus musculus with 12 samples.

Results

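Genes of cholesterol and fatty acid synthesis were compared between 2 CD4 T cell populations of the infected mouse spleen. The set holds 29 named genes, matched by symbol among the 55401 genes of the deposited tables. Of these, 18 belong to sterol synthesis, with its regulators and 1 sterol carrier, and 11 to the synthesis, elongation and desaturation of fatty acids, with their regulator Srebf1. The rule matches symbols and holds no measured value, but the genes were listed with earlier results of these data known.

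Cells build cholesterol from acetyl-CoA through mevalonate, farnesyl and squalene intermediates and then a long series of changes to lanosterol, and they build fatty acids from the same acetyl-CoA. Both pathways are driven by the SREBP transcription factors, which are held in the endoplasmic reticulum with their escort Scap by the Insig proteins when sterols are plentiful, and are carried to the Golgi and cleaved when sterols fall. T cells raise both pathways when they are activated and divide, since growing membranes need sterols and fatty acyl chains.

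Both populations came from spleens of C57BL/6 mice infected with Leishmania donovani, a protozoan parasite that lives in macrophages, and were taken at day 21 of infection. Magnetic beads enriched CD4 T cells, and flow cytometry then sorted them either as LAG-3+ CXCR5+ PD-1lo/int cells, named TLCP here, or as T follicular helper cells, named Tfh here. According to the series description the Tfh cells were CXCR5+ PD-1hi and mostly from germinal centers, and 6 mice were used, so each population has 6 libraries of polyadenylated RNA, numbered 1 to 6. No uninfected group was analysed here, so every value is from infected mice, and no genotype or transgene is named.

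Each library held 6939770 to 12688306 reads assigned to a gene. Levels are counts per 1000000 assigned reads (CPM) after TMM scaling. A count of 0 allows up to 0.236 to 0.432 CPM (3 counts of the assigned total before TMM scaling, counting error only). Of 4 CD4 T cell markers, Cd4, Trac and Cd3g were lower in TLCP, each with no overlap, and Cd3e did not pass, at 503 ± 29.4 CPM in TLCP and 520 ± 19.2 in Tfh (SD, n = 6 each). Summed, the 4 came to 2059 to 2521 CPM in TLCP and 2877 to 3160 in Tfh (median log2 fold change -0.39), and the part of this difference in the results below was not tested. Of the sort markers Lag3 was higher and Cxcr5 and Pdcd1 were lower in TLCP, each with no overlap between the populations. Transcripts of other cells were also present. No marker was at 0 in all libraries, but the neutrophil markers Ly6g, Camp and Ltf were at 0 in every TLCP library. Ly6g was above 0 only in Tfh replicate 4, at 0.318 CPM, under the 0.432 CPM (before TMM scaling) that a count of 0 allows there. Of 12 B cell markers, 10 were higher in TLCP and 0 lower, with summed levels of 5454 to 24553 CPM in TLCP and 1245 to 2441 in Tfh, led over the 12 libraries by Ighm and Cd74. Of 8 plasma cell markers, 6 were higher and 0 lower, with summed levels of 2036 to 11673 and 193 to 1228 CPM, led by Igkc and Jchain. Summed levels of 5 basophil and mast cell markers, led by Mcpt8 and Prss34, were 23.3 to 91.4 CPM in TLCP and 0 to 6.69 in Tfh, with 4 higher. Macrophage markers (8 genes, led by Lyz2 and Cd68) summed to 29.6 to 111 CPM and 17.8 to 81.2, with 0 called, and dendritic cell markers (6 genes, led by Zbtb46 and Itgax) to 7.57 to 20.7 and 0.708 to 7.01, with 2 higher. Neutrophil markers (5 genes, led by S100a9 and S100a8) summed to 0.300 to 18.2 CPM and 0 to 34.96, erythroid markers (5 genes, led by Hbb-bs) to 31.9 to 97.4 and 3.35 to 79.5, with 0 called in either, and CD8 T and NK cell markers (4 genes, led by Klrb1c and Cd8b1) to 9.85 to 20.8 and 15.1 to 22.3, with 1 lower. In sorted bulk samples, fewer cells of a type and less RNA per cell cannot be told apart.

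The lipid synthesis genes did not move as a block between TLCP and Tfh. Mvd, Lss, Nsdhl, Scd1 and Elovl6 were higher in TLCP, Insig1, Msmo1 and Scd2 were lower, and the other 20 tested genes did not pass. Me1, the malic enzyme that supplies NADPH, had 0 reads in all 12 libraries and was the only one of the 29 left out by the filter on low counts. Across the whole table, edgeR's quasi-likelihood test with a Benjamini-Hochberg adjusted p under 0.05 called 33.2% of 12015 genes, 16.8% higher and 16.4% lower in TLCP. The 8 called of 28 tested lipid genes, 28.6%, stand near that background. Their median log2 fold change (TLCP over Tfh) was -0.064, beside -0.0041 for all tested genes, and the median size of the change without its sign was 0.244, beside 0.247. Library ranges did not overlap for 3 of them, Nsdhl, Elovl6 and Scd2, where 17.2% of all tested genes had ranges that did not overlap (8.3% higher and 8.86% lower in TLCP). Both called and at least 2-fold were Scd1 and Mvd, 2 of 28, beside 9.74% of all tested genes.

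**Figure D1:**
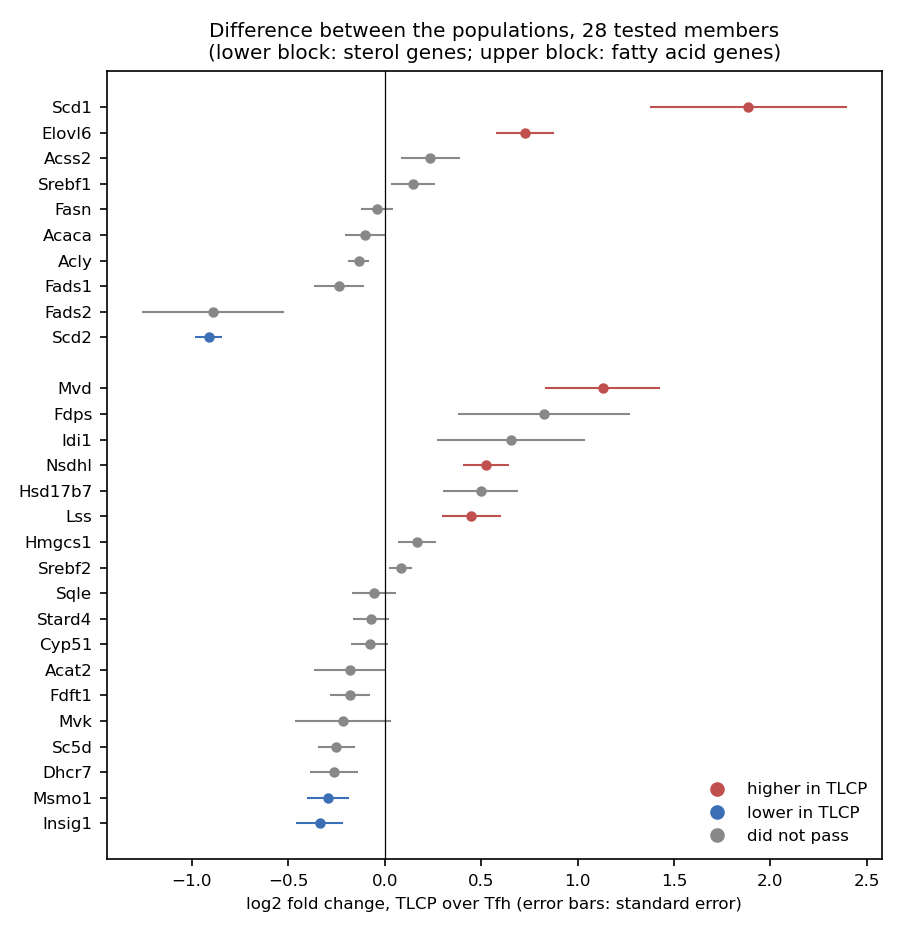
Log2 fold change between TLCP and Tfh (x axis) for the 28 tested lipid synthesis genes (y axis), with the standard error as a bar, sterol genes in the lower block and fatty acid genes in the upper one. Scd1 lies farthest to the right at 1.88 with the widest bar among the called genes, and Scd2 farthest to the left at -0.91 with a narrow one.

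The split between higher and lower depended on the scaling. With library totals alone the median of all genes moved to 0.17 on the log2 scale, and 3207 genes were higher and 893 lower, beside 2014 and 1969 in the main fit. On log2(TPM + 1) values the median was 0.25, with 3180 higher and 473 lower. Under either of these, 9 lipid genes were higher, with Hmgcs1, Hsd17b7, Srebf1 and Srebf2 added, and Scd2 was the only one lower. Directions below are those of the main fit unless another is named.

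Among the regulators of the sterol arm, Srebf2, which encodes the SREBP that governs cholesterol genes, did not pass the test. Its level was 125, 135 and 139 CPM (lowest, median and highest) in TLCP and 117, 128 and 132 in Tfh, so the ranges overlapped and the libraries of a population stayed within 1.13-fold of each other. TLCP over Tfh came to 0.08 on the log2 scale (SE 0.060, adjusted p = 0.313). Per transcript length Srebf2 was the most abundant sterol gene, at a mean of 43.3 TPM over the 12 libraries.

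Insig1, which retains the SREBP and Scap complex in the endoplasmic reticulum and is itself a classic SREBP target, was lower in TLCP. It ranged over 19.8, 30.2 and 35.4 CPM (lowest, median, highest) in TLCP and 33.8, 36.8 and 44.6 in Tfh. TLCP was the lower of the pair at 5 of the 6 replicate numbers, with ranges that overlapped only at their edges. The log2 fold change was -0.34 (SE 0.12, adjusted p = 0.0373), and the call was lost with library totals alone (-0.17), on TPM values (-0.066) and without any 1 of TLCP replicates 1, 4 or 5 or Tfh replicates 2, 3 or 5.

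The first steps from acetyl-CoA to the isoprenoids held 1 called gene. Acat2, which joins acetyl-CoA units in the cytosol, gave 9.29 ± 2.16 CPM in TLCP and 10.6 ± 2.30 in Tfh (SD, n = 6). Hmgcs1, which makes HMG-CoA and was the third most abundant sterol gene at 27.9 TPM, gave 46.7, 55.8 and 67.2 CPM (lowest, median, highest) in TLCP and 42.1, 48.8 and 57.9 in Tfh. Neither passed (log2 fold changes -0.18 and 0.17, adjusted p = 0.4999 and 0.202). The mevalonate kinase Mvk was low in both, at 3.37 ± 0.767 and 3.91 ± 0.781 CPM.

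Mvd, the decarboxylase that ends the mevalonate steps, was higher in TLCP. Its levels were 2.76, 5.16 and 8.93 CPM (lowest, median, highest) in TLCP and 1.86, 2.49 and 3.35 in Tfh. TLCP exceeded Tfh at all 6 replicate numbers, although the lowest TLCP library (replicate 4) lay inside the Tfh range. The log2 fold change was 1.13 (SE 0.30, adjusted p = 0.00595), from only 12 to 91 reads per library. Idi1 and Fdps, which isomerise and condense the isoprenoid units, rested on 3 to 43 and 3 to 32 reads and did not pass (0.65, SE 0.38, and 0.83, SE 0.45). For them, as for Acat2, Fdft1, Acaca and Me1, 25.3% to 39.1% of the 50-base stretches of their transcripts also occur in transcripts of another gene, so their unique counts are less certain.

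Of the squalene steps, Fdft1 and Sqle, which make squalene and its epoxide, did not pass, at 23.9 ± 2.66 and 27.1 ± 3.07 CPM for Fdft1 and 24.8 ± 4.22 and 25.8 ± 2.72 for Sqle (TLCP and Tfh). Lss, the cyclase that closes the sterol ring system to lanosterol, was higher in TLCP. It gave 13.1, 16.4 and 21.5 CPM (lowest, median, highest) in TLCP and 9.35, 11.9 and 15.6 in Tfh. The ranges overlapped and TLCP was higher at 5 of 6 replicate numbers. The log2 fold change was 0.45 (SE 0.15, adjusted p = 0.0300), and 6 of the 12 fits that left out 1 library lost the call (without TLCP replicates 2, 3 or 6 or Tfh replicates 3, 4 or 6).

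The steps from lanosterol to cholesterol moved in both directions. Nsdhl, the dehydrogenase of the demethylation complex, was higher in TLCP at 22.5, 26.3 and 28.8 CPM (lowest, median, highest), against 11.8, 19.2 and 20.0 in Tfh. Every TLCP library exceeded every Tfh library. The difference was 0.52 on the log2 scale (SE 0.12, adjusted p = 0.00219). Msmo1, the methyl oxidase of the same complex, was lower, at 24.1, 31.0 and 31.8 CPM in TLCP and 26.3, 37.2 and 43.0 in Tfh. TLCP was the lower at all 6 replicate numbers with overlapping ranges, and the log2 fold change was -0.29 (SE 0.11, adjusted p = 0.0461). The Msmo1 call was among the least secure: it was lost in 8 of the 12 fits without 1 library (without TLCP replicates 1 to 4 or Tfh replicates 1, 2, 3 or 5), with DESeq2 and with RLE size factors. On TPM values its sign turned, to 0.0043. The authors' deposited table gives Msmo1 an adjusted p of 0.0615 and Nsdhl 0.000268.

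Hsd17b7, the ketoreductase that completes that demethylation, stood just outside the threshold at 10.8 ± 2.25 CPM in TLCP and 7.64 ± 1.98 in Tfh (log2 fold change 0.50, SE 0.20, adjusted p = 0.0559). With the replicate number as a block it passed (adjusted p = 0.0248) and in the authors' deposited table (0.0470). Sc5d, the sterol desaturase, was at 45.6 ± 5.86 and 54.2 ± 5.84 CPM (-0.25, SE 0.097, adjusted p = 0.0513, with the block 0.0144). Cyp51, which removes the first lanosterol methyl group and was the second most abundant sterol gene at 32.8 TPM, gave 51.6, 58.3 and 71.6 CPM (lowest, median, highest) in TLCP and 50.2, 63.6 and 69.8 in Tfh, overlapping over nearly their whole range (log2 fold change -0.08, SE 0.095). Dhcr7, a late reductase, gave 22.7 ± 2.79 and 27.3 ± 5.26 CPM (adjusted p = 0.109), and the sterol carrier Stard4 55.4 ± 7.59 and 58.3 ± 5.44 (adjusted p = 0.604).

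Summed over its 18 genes, the sterol arm came to 556 ± 34.4 CPM in TLCP and 562 ± 26.9 in Tfh, with ranges of 525 to 602 and 521 to 589. On the TPM scale the sums were 297 ± 25.2 and 248 ± 42.6. In all, 3 of the 18 were higher and 2 lower, and with mice 4 to 6 alone 0 of the sterol genes were called.

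Promoter windows show where the letters known from SREBP-driven genes stand in the called sterol genes. The windows run from 250 bases before to 50 after the annotated start and come from RefSeq on GRCm38.p6, where 22 of the 29 genes matched by symbol. The 5 called sterol genes are printed 5′ to 3′ on the gene's strand. Capitals mark the core of the sterol regulatory element (TCACNCCA), the E-box (CACGTG) and the CCAAT box, on either strand, so that a CCAAT box on the other strand reads ATTGG.
Nsdhl, higher in TLCP, chrX:72918271-72918570, plus strand: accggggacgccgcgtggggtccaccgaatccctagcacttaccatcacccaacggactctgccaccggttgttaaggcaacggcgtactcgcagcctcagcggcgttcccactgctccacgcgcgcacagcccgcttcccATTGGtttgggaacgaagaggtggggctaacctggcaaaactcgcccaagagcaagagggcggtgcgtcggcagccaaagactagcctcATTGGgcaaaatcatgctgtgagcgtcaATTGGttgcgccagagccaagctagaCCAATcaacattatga
Mvd, higher, chr8:122443373-122443672, minus strand: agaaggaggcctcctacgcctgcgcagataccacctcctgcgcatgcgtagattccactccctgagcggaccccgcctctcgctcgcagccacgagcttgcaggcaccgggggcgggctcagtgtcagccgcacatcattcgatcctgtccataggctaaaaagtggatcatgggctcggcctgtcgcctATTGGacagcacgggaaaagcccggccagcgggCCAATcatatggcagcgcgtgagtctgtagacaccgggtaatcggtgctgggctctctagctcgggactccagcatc
Lss, higher, chr10:76531355-76531654, plus strand: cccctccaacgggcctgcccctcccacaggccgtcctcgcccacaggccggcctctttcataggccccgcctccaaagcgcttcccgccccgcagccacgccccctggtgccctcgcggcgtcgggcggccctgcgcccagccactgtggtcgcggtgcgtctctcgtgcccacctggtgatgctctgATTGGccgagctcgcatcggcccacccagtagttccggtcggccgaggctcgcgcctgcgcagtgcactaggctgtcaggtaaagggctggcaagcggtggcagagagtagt
Insig1, lower, chr5:28071162-28071461, plus strand: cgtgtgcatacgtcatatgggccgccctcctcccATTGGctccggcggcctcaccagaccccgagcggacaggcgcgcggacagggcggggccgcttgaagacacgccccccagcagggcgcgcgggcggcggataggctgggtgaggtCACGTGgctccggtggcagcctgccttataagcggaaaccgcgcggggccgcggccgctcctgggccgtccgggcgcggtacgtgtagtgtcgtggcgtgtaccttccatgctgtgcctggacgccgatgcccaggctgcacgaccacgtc
Msmo1, lower, chr8:64733529-64733828, minus strand: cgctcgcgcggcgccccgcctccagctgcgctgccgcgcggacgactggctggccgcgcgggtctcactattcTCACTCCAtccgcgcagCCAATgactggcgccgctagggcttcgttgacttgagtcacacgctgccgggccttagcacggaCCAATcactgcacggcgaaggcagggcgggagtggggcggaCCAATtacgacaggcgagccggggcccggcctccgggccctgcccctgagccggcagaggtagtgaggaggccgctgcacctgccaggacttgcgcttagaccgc

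The CCAAT box, the site of the factor NF-Y that acts beside SREBP, stood in each of these 5 windows: 4 times in Nsdhl, 3 in Msmo1, 2 in Mvd and 1 in both Lss and Insig1. Over all matched lipid genes it stood in 18 of 22, beside 41.1% of 27025 RefSeq genes. The GC box GGGCGG, which is not in capitals, stood in 19 of 22, beside 38.2%. The sterol regulatory element core stood in 3 of 22 (Hmgcs1, Srebf2 and Msmo1, where it lies 177 bases before the start), beside 4.97% of genes, and the E-box in 4 of 22 (Dhcr7, Hsd17b7, Sc5d and Insig1, at 101 bases before the start), beside 8.09%. The longer form TCACNCCAC was searched first and stood in Hmgcs1 alone and in 1.44% of genes; the shorter core was chosen after that result was seen. The CCAAT box stood in higher and lower genes alike. The element core and the E-box stood only in the windows of the lower genes Msmo1 and Insig1 among these 5. The window of Elovl6 held none of these letters. The motif counts are descriptions of the windows and not of binding. The RefSeq shares cover all genes with a window, not only those detected here, and shares among detected genes were not computed.

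In the fatty acid arm 2 of 10 tested genes were higher in TLCP and 1 lower. The regulator Srebf1, whose product drives fatty acid genes, did not pass (30.7 ± 2.61 CPM in TLCP, 27.8 ± 5.04 in Tfh, log2 fold change 0.15, SE 0.11, adjusted p = 0.349). Its difference between populations was 0.43 in mice 1 to 3 and -0.12 in mice 4 to 6. A test of that change between the mouse sets gave an adjusted p of 0.346 (edgeR interaction term, unadjusted 0.00648).

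Acly, which splits citrate into cytosolic acetyl-CoA for both pathways, was the most abundant of all 29 genes at 95.2 TPM. It gave 190, 199 and 218 CPM (lowest, median, highest) in TLCP and 215, 218 and 240 in Tfh. TLCP was lower at all 6 replicate numbers by a small amount, with ranges that overlapped, and the gene did not pass (log2 fold change -0.13, SE 0.055, adjusted p = 0.0681); with totals alone and on TPM values the sign was positive. Acss2, which makes acetyl-CoA from acetate, gave 17.3 ± 1.697 and 14.7 ± 3.76 CPM (adjusted p = 0.253). Acaca, which commits acetyl-CoA to fatty acids as malonyl-CoA, gave 23.9 ± 1.46 and 25.8 ± 3.51 CPM (adjusted p = 0.477), and the fatty acid synthase Fasn 90.1 ± 6.71 and 92.7 ± 10.9 (adjusted p = 0.741). The enzymes that build palmitate gave no call, and the 3 called genes of this arm lengthen or desaturate the finished chain.

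Elovl6, which lengthens palmitate toward stearate, was higher in TLCP. It gave 15.8, 18.2 and 27.6 CPM (lowest, median, highest) in TLCP and 10.1, 11.2 and 14.7 in Tfh. Every TLCP library lay above every Tfh library. The difference was 0.73 on the log2 scale (SE 0.15, adjusted p = 0.000846), and the call held in all 28 alternative fits, between 0.60 and 0.98.

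Opposite directions were found for the stearoyl-CoA desaturases Scd1 and Scd2, which place the first double bond in saturated acyl chains and lie as neighbours on chromosome 19 (GRCm38, GENCODE M21: Scd1 at chr19:44394455-44407879, minus strand, and Scd2 at chr19:44293674-44306864, plus strand). Scd2 was lower in TLCP at 124, 135 and 158 CPM (lowest, median, highest), against 248, 255 and 286 in Tfh. The populations were far apart, with no library between 158 and 248 CPM. On the log2 scale TLCP lay at -0.91 (SE 0.071, adjusted p = 8.66e-09). All 28 alternative fits called Scd2 lower, from -1.01 to -0.62.

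Scd1 went the other way and varied widely. It gave 43.9, 108 and 258 CPM (lowest, median, highest) in TLCP and 9.47, 31.2 and 62.8 in Tfh. TLCP was higher at all 6 replicate numbers while the ranges overlapped, since TLCP replicate 1 lay below Tfh replicates 4 and 6. The log2 fold change was 1.88 (SE 0.51, adjusted p = 0.0165), 1.51 to 2.19 when any 1 library was left out, and past the threshold in each of those 12 fits. Mice 1 to 3 alone gave 1.98 (adjusted p = 0.112) and mice 4 to 6 alone 1.82 (adjusted p = 0.169), with 3 libraries a population in each. With the replicate number as a block the value was 1.92 (SE 0.12, adjusted p = 6.32e-08).

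Per transcript length, Scd1 made up 46.3% ± 13.97 of the TPM of both desaturases together in TLCP (range 26.2% to 69.9%) and 11.9% ± 6.49 in Tfh (4.09% to 21.9%), with no overlap. The sum of both was 132 ± 45.4 TPM in TLCP and 117 ± 17.5 in Tfh. In CPM, the scale of the main fit, the order of the means turned, with 260.1 ± 69.8 in TLCP and 294 ± 24.4 in Tfh. Few reads could be swapped between them by sequence: 4.56% of the 50-base stretches of Scd1 transcripts and 3.97% of those of Scd2 occur in another gene.

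**Figure D2:**
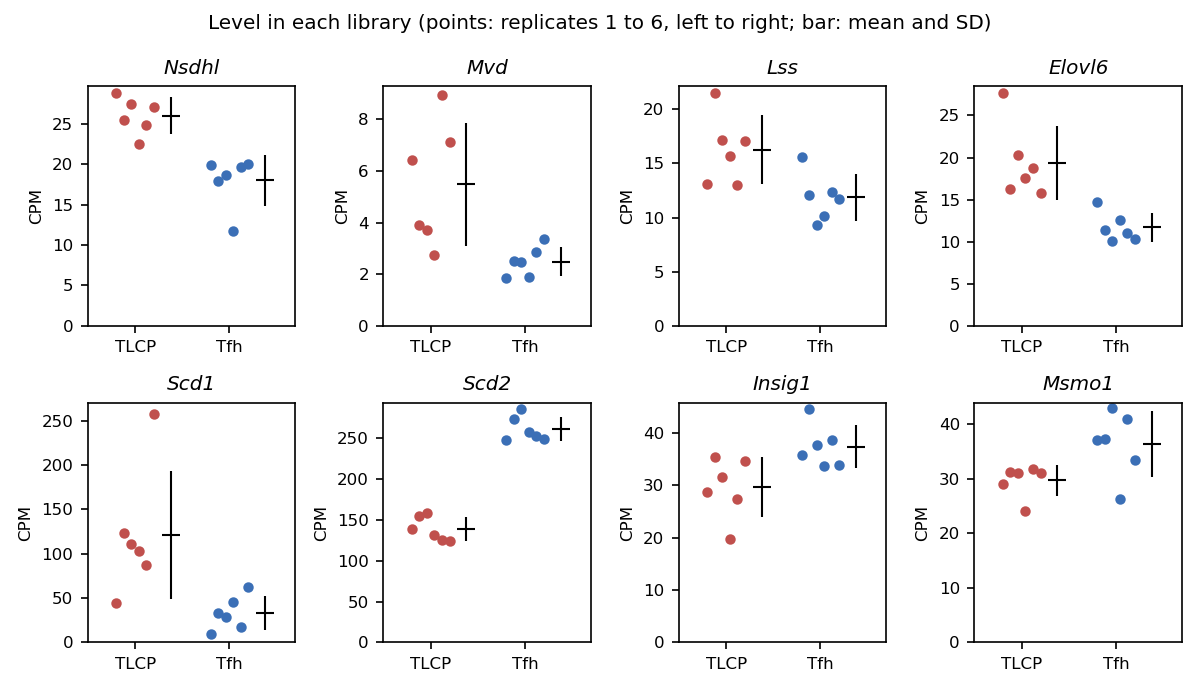
Level of the 8 called genes in CPM (y axes, each from 0) in each TLCP and Tfh library, with the mean and SD as a bar. Points of Nsdhl, Elovl6 and Scd2 are fully separated between the populations, and Scd1 spreads from 43.9 to 258 CPM in TLCP.

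B cell transcripts moved with Scd1 from library to library. These ratios and their tests were chosen after the data were seen. Scd1 spanned 27.3-fold over the 12 libraries, yet its ratio to the B cell receptor gene Cd79b stayed between 0.930 and 1.42 in TLCP and between 1.02 and 1.65 in Tfh. Its ratio to Ms4a1, which encodes CD20, was 0.416 to 0.654 and 0.444 to 0.730. For 4 of the 12 B cell markers (Ms4a1, Cd79a, Cd79b and Ighd) this ratio varied less than 2-fold over all libraries.

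The log2 ratio of Scd1 to Cd79b differed between the populations by -0.25 (TLCP minus Tfh, exact permutation p = 0.0974, 2-sided, n = 6 and 6, adjusted over the 12 markers 0.195), and that to Ms4a1 by -0.036 (exact permutation p = 0.820, adjusted 0.895). Cd22 and Pax5 were among the markers whose ratio differed between the populations after adjustment, both without overlap. Each had an exact permutation p of 0.00216 (adjusted 0.00866), the smallest that 6 against 6 unpaired libraries allow. Relative to them Scd1 was higher in TLCP (log2 differences 1.78 and 1.35). All these permutations between the populations ignored the replicate pairs, and a paired test of the ratios was not run. Cd22 and Pax5 themselves did not pass between TLCP and Tfh. The ratios to Ighm and to the plasma cell gene Jchain varied 12.2-fold and 41.3-fold. The B cell markers had a median log2 fold change of 2.10 (range 0.23 to 3.18), beside 1.88 for Scd1.

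**Figure D3:**
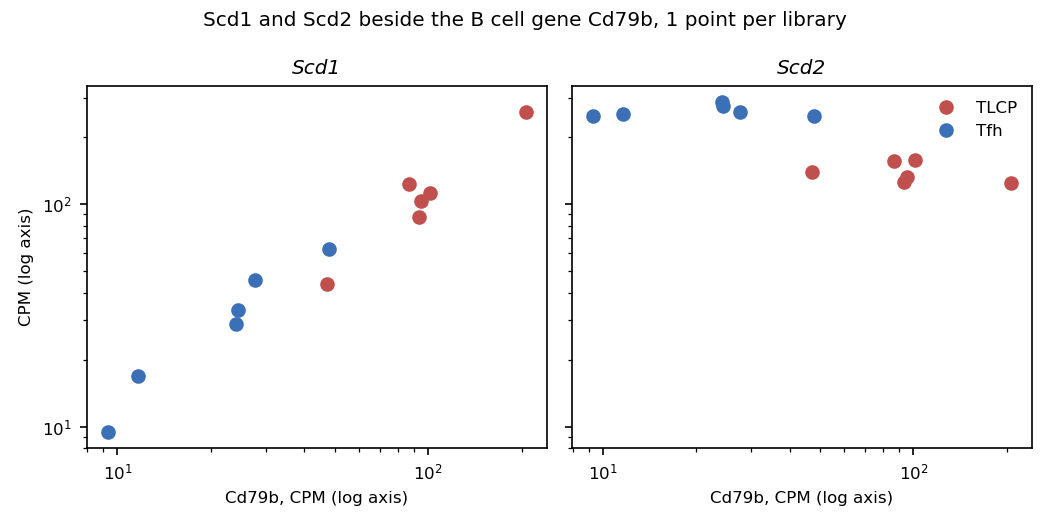
Scd1 (left) and Scd2 (right) against the B cell gene Cd79b, in CPM on log axes, 1 point per library. Scd1 and Cd79b rise together across both populations, with ratios of 0.930 to 1.65, while Scd2 stays at 124 to 158 CPM in TLCP and 248 to 286 in Tfh over the whole range of Cd79b.

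Within each population, each tested lipid gene was set against the mean log2 CPM of the B cell markers. Scd1 was the only one with Pearson's r over 0.9 in both. In Tfh r was 0.98 (exact permutation p = 0.00139, the smallest 6 libraries allow) and Spearman's rho 1.0 (exact permutation p = 0.00278), and r was 0.95 without the 2 libraries farthest from the median. In TLCP r was 0.95 (exact permutation p = 0.0514) with rho 0.60 (exact permutation p = 0.242), and r was -0.49 without replicates 1 and 6, so the TLCP relation to this mean rests on those libraries. Adjusted over all 56 relations, the exact permutation p values of Scd1 were 0.0778 and 0.791 for r and 0.156 and 0.866 for rho, and 0 of 56 were under 0.05. Elovl6 gave r of -0.82 in TLCP and -0.63 in Tfh (exact permutation p = 0.0833 and 0.183), and Scd2 -0.36 and 0.14 (0.513 and 0.799, exact permutation). The part of B cell RNA in the Scd1 difference was not tested.

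Removal of TLCP replicates 4 and 5, where B cell and plasma cell counts together were highest, a choice made after the data were seen, kept Scd1, Elovl6, Mvd, Nsdhl and Lss higher and Scd2 lower, added Hsd17b7 (adjusted p = 0.0213), and ended the calls of Insig1 (-0.20, adjusted p = 0.169) and Msmo1 (-0.26, adjusted p = 0.129). Those are the libraries highest in immunoglobulin. In Ms4a1 and Cd79b TLCP replicate 6 was the highest, and without it Scd1 was at 1.51 (adjusted p = 0.0330).

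The delta-5 and delta-6 desaturases of polyunsaturated fatty acids closed the arm. Fads1 gave 16.6 ± 2.02 CPM in TLCP and 19.5 ± 3.502 in Tfh (adjusted p = 0.173). Fads2 gave 2.38 ± 1.004 and 4.39 ± 2.09 CPM, lower in TLCP at all 6 replicate numbers, from 8 to 73 reads (log2 fold change -0.89, SE 0.37, adjusted p = 0.0684); with the replicate number as a block it passed (-0.86, adjusted p = 0.0242).

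The 28 detected genes covered a wide range of levels. Mean TPM over the 12 libraries ran from 0.901 for Fdps to 95.2 for Acly, and 3 genes of the fatty acid arm, Acly, Scd2 and Scd1, stood at 95.2, 84.6 and 40.2 TPM. Srebf2, Acly and Scd2 varied least within a population, at most 1.27-fold between the lowest and highest library. Scd1 varied 5.88-fold in TLCP and 6.63-fold in Tfh on at least 107 reads per library, while the similar spread of Fdps and Fads2 rests on as few as 3 and 8 reads.

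**Figure D4:**
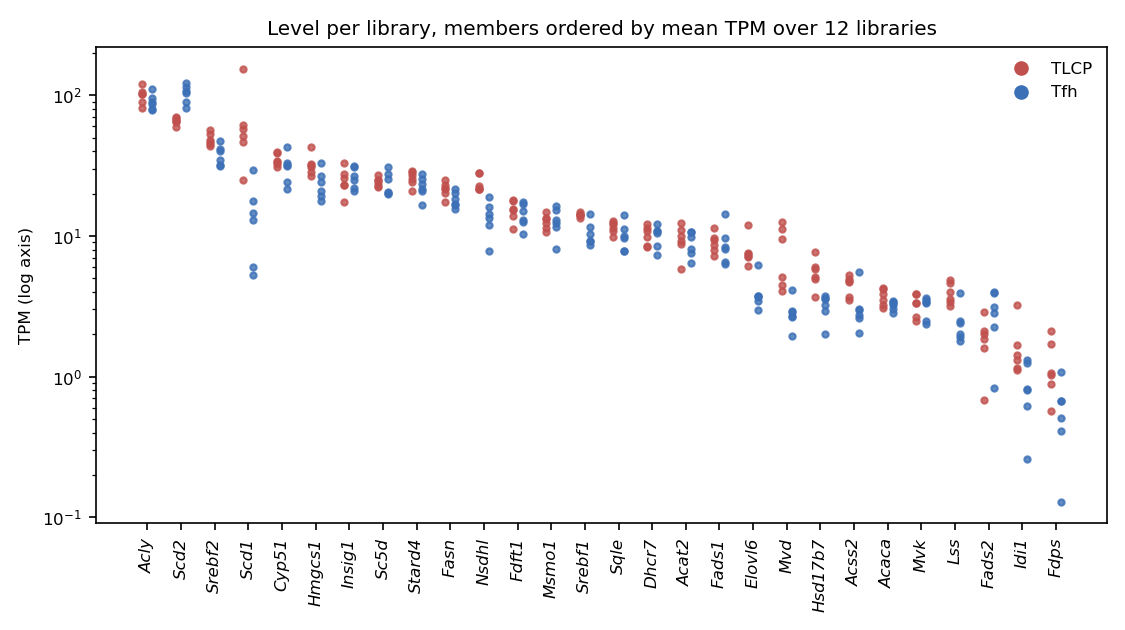
TPM (y axis, log) of each of the 28 detected lipid synthesis genes in each library, ordered by mean TPM, with TLCP on the left and Tfh on the right of each position. Acly stands highest at a mean of 95.2 TPM and Fdps lowest at 0.901, and the points of Scd1 spread more than those of the other abundant genes.

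Within the populations, most pairs of genes of the same arm had an r of 0.5 or less. No value for pairs of all tested genes was computed, so whether these pairs differ from other genes was not tested. Over deviations from the population means, as a description over 12 libraries that share their depth and cell mixture, the 153 pairs of sterol genes had a median r of 0.14, with 26 pairs over 0.5, and the 45 pairs of fatty acid genes a median r of -0.023, with 5 over 0.5. Ranked in the same way over all 12015 genes, the 10 genes most like Scd1, a gene chosen for this after its values were seen, included Bank1, Mef2c, Serpinb1a, Lyn, Cd79b, Swap70, Ly86, Fcrla and Ms4a1 (all 10 with r from 0.96 to 0.98).

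The libraries fell by deviation into 2 sets, mice 1 to 3 and mice 4 to 6, for which no label names a batch. The sets were drawn from these same data, so a test between them cannot show that they differ. That test also counted the 6 libraries of 3 mice in each set as if they were independent. Of all tested genes 8.8% were called between the sets, and 0 of the 28 lipid genes were called after adjustment (edgeR). Unadjusted, 5 had p under 0.05 (Scd2, Fasn, Stard4, Cyp51 and Sqle). A change of the difference between TLCP and Tfh with the set was called after adjustment for 0 of 12015 genes (1115 with unadjusted p under 0.05, edgeR). With 3 mice in each set, the lack of a call does not show that the difference stayed the same. Mice 1 to 3 alone called 5 lipid genes higher and 3 lower, and mice 4 to 6 alone called Elovl6 higher and Scd2 lower only, where 2792 genes were called in all.

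Genes around the pathway were read from 8 lists of 109 genes, of which 94 were tested. Of these, 40.4% were called, 10 higher in TLCP and 28 lower, beside 33.2% of all tested genes (16.8% higher and 16.4% lower). The lower calls depended on scaling: with totals alone 23 were higher and 11 lower, and on TPM values 24 and 4. The counts below are without the replicate block. With it, Acsl1 (0.42, adjusted p = 0.0209) and Mylip (0.22, adjusted p = 0.0499) were added as higher in TLCP, and Cpt1a (-0.35, adjusted p = 0.0017), Plin3 (-0.47, adjusted p = 0.0041) and Tecr (-0.25, adjusted p = 0.0381) as lower. Slc25a1 no longer passed (-0.31, adjusted p = 0.0535), and no other call in these lists changed with the block.

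Of 10 tested further sterol enzymes, 0 were higher and 2 lower. They were Por, the electron donor of Cyp51 and Sqle (35.7 ± 4.01 CPM in TLCP, 57.1 ± 9.22 in Tfh, log2 fold change -0.68, adjusted p = 7.75e-05), and the sterol reductase Tm7sf2 (-1.001, adjusted p = 0.0155, lost on TPM values).

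Of 13 genes for SREBP processing and protein turnover in the endoplasmic reticulum, 2 were higher and 6 lower. Syvn1, a ubiquitin ligase of the endoplasmic reticulum, was higher (39.3 ± 8.77 and 20.2 ± 2.28 CPM, 0.96, adjusted p = 1.51e-05), and the plasma cell markers were higher in the same libraries; their part was not tested. Rnf139, also a ligase of that membrane, was lower (-0.57, adjusted p = 4.1e-06, on TPM values -0.27 and not passed). On TPM values 4 genes of this list were higher and 0 lower.

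Of 14 tested genes of cholesterol uptake, esterification and transport, 3 were higher and 3 lower. Npc2, which moves cholesterol out of lysosomes, was higher (168 ± 16.002 and 99.2 ± 10.2 CPM, 0.76, adjusted p = 4.74e-07), and the lysosomal lipase Lipa lower (68.1 ± 3.62 and 102 ± 13.3, -0.59, adjusted p = 1.27e-05, lost on TPM values).

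Of 7 tested LXR and oxysterol genes, 3 were higher and 2 lower. The cholesterol exporter Abca1 was higher (42.4 ± 9.09 and 15.03 ± 6.29 CPM, 1.51, adjusted p = 0.000605). The part of RNA from other cells in the Abca1 difference was not tested. The related exporter Abcg1 was lower (71.7 ± 2.53 and 95.7 ± 11.9, -0.42, adjusted p = 0.000344), but not with totals alone (adjusted p = 0.0558) or on TPM values.

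Further fatty acid synthesis and elongation genes (14 tested) gave 0 higher and 5 lower. Hacd3, a dehydratase of the elongation cycle, was lowest against Tfh (77.2 ± 10.02 CPM in TLCP, 207 ± 27.4 in Tfh, -1.42, adjusted p = 1.91e-09), with Acsl3, which couples fatty acids to CoA, at 8.67 ± 1.29 and 18.4 ± 4.06 (-1.09, adjusted p = 2.84e-05). Both stayed lower under totals alone and on TPM values. Glycerolipid genes (9 tested) gave 2 higher and 2 lower, with Dgat1, which makes triglyceride, higher (0.67, adjusted p = 0.00449) and the acyltransferase Agpat3 lower (-0.38, adjusted p = 5.27e-05, lost with totals alone and on TPM values).

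Fatty acid oxidation genes (19 tested) had 0 higher and 7 lower, which is 36.8% called beside 33.2% of all tested genes. Their median on the log2 scale was -0.27. Decr1, a reductase for unsaturated chains, was at 23.7 ± 4.29 and 42.5 ± 5.07 CPM (-0.85, adjusted p = 1.6e-05), and Hadha, a subunit of the mitochondrial trifunctional protein, at 131 ± 5.37 and 171 ± 11.1 (-0.39, adjusted p = 5.05e-05). With totals alone, as on TPM values, 1 gene of this list, Decr1, was called. Of 8 protein prenylation genes, which use isoprenoids from the sterol path, Fnta was lower (-0.37, adjusted p = 0.00452, lost with totals alone and on TPM values) and Rce1, next by p, did not pass (-0.48, adjusted p = 0.0544).

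**Figure D5:**
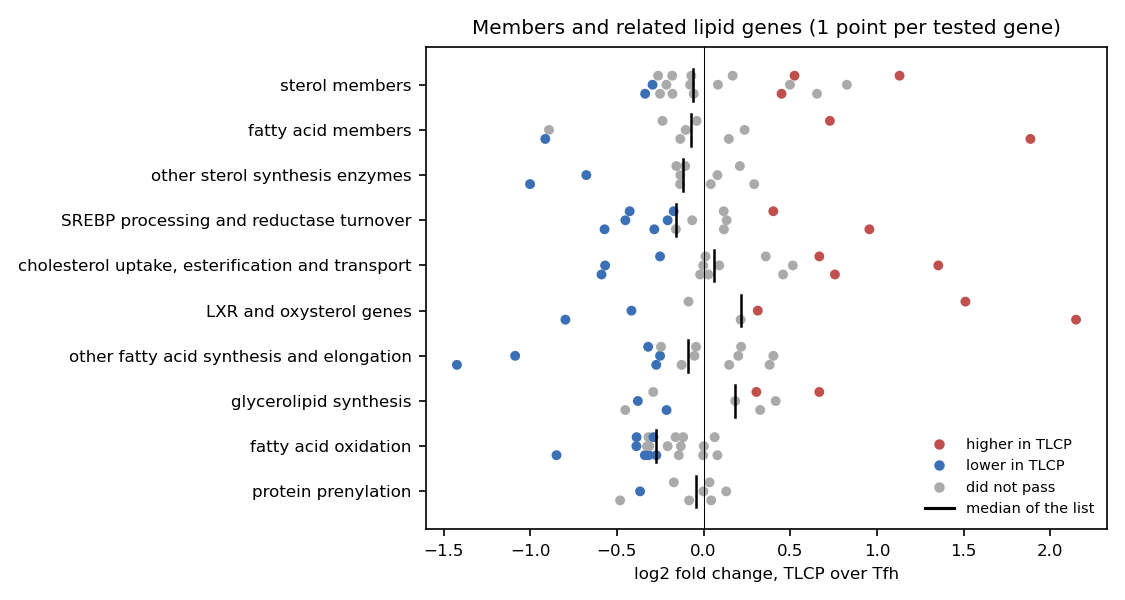
Log2 fold change between TLCP and Tfh (x axis) of every tested gene in the sterol and fatty acid sets and in the 8 lists around them (y axis), 1 point per gene, with the median of each list as a bar. The medians of the 2 lipid synthesis sets lie at -0.064 and -0.072, and that of the fatty acid oxidation genes at -0.27.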

How the data were processed

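The authors deposited gene-level read counts, not normalized, for 12 libraries in STAR's layout, and the stranded column was used. Reads in classes that name no gene (44.9% to 56.4% of all) stayed out of library sizes. Opposite-strand reads came to 2.83% to 4.19%. STAR 2.7.1a, bcl2fastq 2.20, DESeq2 1.30.1 and GRCm38 are named by the submitters' processing notes; which gene annotation was counted is not stated in the labels or headers used here. The authors' deposited table holds log2 fold changes, p-values and a normalized signal per library, the count divided by a size factor. Dividing out the steps of that signal gave whole reads in 100% of values (within 0.01 reads); they equalled the stranded counts and called 3983 genes. The authors' deposited TPM values were used to compare levels between genes and, as log2(TPM + 1), in an alternative. CT010467.1, a ribosomal RNA-like gene, held 12.9% to 30.9% of assigned counts.

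Counts were fitted in R 4.3.3 with edgeR 4.0.16 (filterByExpr, TMM, robust quasi-likelihood test, 2-sided, Benjamini-Hochberg adjusted p under 0.05, all 12 libraries). Log2 fold changes are TLCP minus Tfh. Replicates are separate libraries of 6 mice per the series description. Same-numbered libraries deviated together from their population means (r 0.127 to 0.318, other numbers up to 0.209, and 9 of 12 libraries best with their own number). On this inferred ground equal numbers are read as pairs in the comparisons by replicate number and in the replicate block. The main fit, with its SE and p-values, does not use the pairs. Libraries of a population differed by more than sampling noise (chi-square over degrees of freedom at least 6.57). Spans are from GENCODE M21 on GRCm38, equal to the files' for 54821 genes. Simulations of TLCP against Tfh (200 genes changed, 11806 to 11868 tested) recovered 77% of 2-fold changes and 95.3% of 4-fold changes. False calls came to 4.42%. The simulated libraries were independent, with no mouse effect and as many genes raised as lowered. Only 2 of the 28 tested lipid genes changed at least 2-fold, so these rates do not carry over to smaller changes.

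The members and lists were chosen with earlier results of these data known. Values are given for all members, per library range for those that passed or were among the 3 most abundant of their arm by TPM, for the 2 genes of smallest p in each related list, and for the 2 most abundant markers of each list (mean CPM over the 12 libraries) by name. Alternatives were RLE factors, totals alone, removal of ribosomal RNA, immunoglobulin and B cell genes, no filter, at least 10 counts in every library of 1 group, unstranded counts, the replicate block, each library left out, mice 1 to 3 or 4 to 6 alone, DESeq2 1.42.0, and limma 3.58.1 on TPM (pseudocounts 1 and 0.1, and no filter). Recovered reads, mouse set as a term, and leaving out 2 TLCP libraries were added after the data were seen. Some genes of the lists are counted but not reported here by name.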

Additional observations from a re-analysis of the deposited data

Results flagged for a closer look

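In each population of 6 libraries, 44 genes were checked for 1 library that stood apart from the other 5 (88 groups, where chance flags about 1 in 20). In 7 groups 1 library did, and all 7 were of lipid synthesis genes. Scd1 stood at 258.3 CPM in TLCP replicate 6, above the next library at 123.4. The B cell genes Ms4a1 and Cd79b were not among the 44. In TLCP replicate 6 they stood at 421.6 and 206.3 CPM, next 209.1 and 101.4, so such a gap is not particular to lipid genes. Idi1 was at 3.884 CPM in that library, next 2.102. Msmo1 was low at 24.11 CPM in TLCP replicate 4, next 29.12. In Tfh replicate 4, the library with the fewest reads, Nsdhl was low at 11.78 CPM, next 17.94, and Dhcr7 high at 37.1, next 27.89. Srebf1 reached 35.68 CPM in TLCP replicate 3, next 31.11, and Acly 239.7 CPM in Tfh replicate 5, next 221.8. Without TLCP replicate 6 the log2 fold change of Scd1 was 1.51 (edgeR adjusted p = 0.0330).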

How the results depend on the processing

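Scd2 (lower) and Elovl6 (higher) were called in all 28 alternatives, Mvd and Nsdhl in all but mice 4 to 6 alone, and Scd1 in all but mice 1 to 3 and mice 4 to 6 alone; Lss was called in 20 of 28, Insig1 in 15 and Msmo1 in 11. Among the 28, the fit on recovered reads used the same counts as the main fit, so its calls were fixed in advance. The count of all genes called was 3983, and 2792 to 4573 in the alternatives. Sterol genes higher were 3, but 6 with totals alone and on TPM values (either pseudocount), 4 with DESeq2, the replicate block, mouse set as a term, without ribosomal RNA, immunoglobulin and B cell genes, without the 2 TLCP libraries and on TPM values with no filter, and 0 in mice 4 to 6; leaving out 1 library gave 2 to 4. Sterol genes lower were 2, but 3 with no filter on counts, unstranded counts, the replicate block and mouse set as a term, 1 with RLE factors, DESeq2 and without ribosomal RNA, immunoglobulin and B cell genes, and 0 with totals alone, on TPM values with either pseudocount or no filter, in mice 4 to 6 and without the 2 TLCP libraries; leaving out 1 library gave 0 to 3. Fatty acid genes higher were 2, but 3 with totals alone and in all 3 fits on TPM values, and 1 in mice 4 to 6; lower were 1, but 2 with the replicate block and with mouse set as a term, and 1 to 2 without 1 library. The replicate block changed no call of the 29 genes except to add Hsd17b7, Sc5d and Fads2, and called 4453 genes. The cause of these moves was not tested, except that fits of 1 mouse set or without a library hold fewer samples. Depth limits Idi1, Fdps, Mvk, Mvd and Fads2, whose reads per library fell to 21 or fewer.

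Signs turned as follows, none past the threshold. On log2(TPM + 1), with the filter and without: Mvk 0.048, Fdft1 0.10, Sqle 0.20, Cyp51 0.20, Msmo1 0.00433, Sc5d 0.032, Dhcr7 0.029, Acat2 0.088, Stard4 0.20, Acly 0.15, Acaca 0.15, Fasn 0.24, Fads1 0.053. On log2(TPM + 0.1): Mvk 0.062, Fdft1 0.11, Sqle 0.22, Cyp51 0.21, Msmo1 0.00662, Sc5d 0.033, Dhcr7 0.032, Acat2 0.096, Stard4 0.21, Acly 0.15, Acaca 0.18, Fasn 0.25, Fads1 0.062. With totals alone: Sqle 0.10, Cyp51 0.085, Acat2 0.00112, Stard4 0.097, Acly 0.043, Acaca 0.078, Fasn 0.14. In mice 1 to 3: Mvk 0.11, Stard4 0.00396, Fasn 0.063. In mice 4 to 6: Srebf1 -0.12. Without the 2 TLCP libraries: Sqle 0.012, Stard4 0.028.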
